A study of Mus musculus with 2 samples.

Results

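The olfactory receptor (Olfr) genes of mouse chromosome 10 were described as the entries of the deposited expression table whose locus lies on that chromosome. Of the 1112 entries in the table, 66 entries with 65 distinct names met this rule. A main cluster of 57 entries ran from Olfr9 at chr10:128426970-128427908 to Olfr827 at chr10:129647216-129648184 in the mouse build mm9. The other 9 entries lay between 78.07 and 78.5 Mb, 49.9 Mb before the cluster, and no entry lay between them and Olfr9. Olfr247 was listed at 2 loci with 1 shared value, which accounts for the entry beyond the 65 names.

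RNA-seq was carried out on olfactory epithelium, the lining of the nose in which odour-sensing neurons sit, from adult wild-type C57BL/6 mice. The 2 samples are both labelled wild type and form 1 group, although the second carries the unexplained word 3bko in its description. The table gives 1 FPKM (fragments per kilobase of gene model, scaled by the library's mapped fragments) per receptor and does not say which sample it came from. Every row names wt and 3bko in its 2 sample columns, so no value can be assigned to wt alone. Every value below is therefore the authors' single value, with no replicate error, no n and an unknown sequencing depth. The table holds receptor genes only, so the tissue could not be checked against markers of its cell types: of 13 such genes looked up, 0 were listed.

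Odorant receptors are G protein-coupled receptors that detect volatile molecules in the cilia of olfactory sensory neurons. A mature neuron is thought to transcribe a single allele of a single receptor gene and to silence the rest of the repertoire. The genes lie in tandem clusters that grew by duplication, their coding sequence is usually a single exon behind untranslated exons, and the MOR nomenclature groups them into families by sequence likeness. In RNA from whole tissue, fewer cells that chose a receptor and less RNA per cell cannot be told apart.

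Receptor coding sequences share a conserved stretch at the end of the third transmembrane segment. It is shown here for the 3 highest and the 2 lowest entries of the main cluster, for the entry with the fewest bases of its own (Olfr782), and for the 2 highest entries outside the cluster, because the clusters differed at this place. The sequences are the sense strand of GENCODE M21 transcripts (GRCm38), and capitals mark the in-frame letters ATGTCNTA or ATGGCNTA, where N is any base.
Olfr820: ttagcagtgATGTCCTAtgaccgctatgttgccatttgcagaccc
Olfr788: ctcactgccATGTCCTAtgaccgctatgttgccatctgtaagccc
Olfr805: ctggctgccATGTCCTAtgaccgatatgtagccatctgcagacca
Olfr814: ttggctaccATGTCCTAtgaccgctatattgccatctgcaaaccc
Olfr809: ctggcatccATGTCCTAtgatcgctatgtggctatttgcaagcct
Olfr782: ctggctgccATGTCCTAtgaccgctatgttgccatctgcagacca
Olfr1354: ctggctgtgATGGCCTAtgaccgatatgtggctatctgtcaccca
Olfr1352: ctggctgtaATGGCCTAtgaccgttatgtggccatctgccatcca

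The letters ATGTCNTA stood in frame between coding bases 300 and 420 in 46 of the 57 main cluster entries (80.7%) and in 0 of the 9 entries outside it. On other chromosomes 108 of 1025 entries with a coding sequence held them (10.5%), and 154 of the 1091 such entries in the whole table did (14.1%). Of all entries with these letters, 29.9% lay in the main cluster. Its other 11 entries held ATGGCNTA, which differs at 1 letter, and were all the entries of MOR269, MOR265 and MOR210. ATGGCNTA stood in 8 of the 9 entries outside the cluster, all but Olfr1357, and in 60.3% of the entries on other chromosomes. The highest and the lowest main cluster entries shown above carry the same letters. Most of the cluster does, so this does not show whether level goes with the letters, which was not tested. The main cluster median was 1.24 FPKM with ATGTCNTA and 0.984 FPKM with ATGGCNTA, against 1.14 FPKM for the entries with ATGTCNTA on other chromosomes.

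Most receptors of chromosome 10 were present at low levels, close in median to the rest of the repertoire. The median was 1.12 FPKM over its 66 entries and 1.10 FPKM over the main cluster, against 1.08 FPKM over the 1046 entries on other chromosomes. The listed locus equals the coding length for 56 of the 57 main cluster entries but for 768 of those 1046. The quantities compared are therefore not all alike. An FPKM of 1 or more was reached by 36 entries on chromosome 10 (54.5%) and by 30 of the 57 in the main cluster (52.6%), where the share over all entries of the table was 52.5%. On the log2(FPKM + 0.1) scale the main cluster median differed from that of other chromosomes by 0.03. This difference has no stable direction, since it was -0.16 against class II receptors (the larger of the 2 receptor classes, to which all 66 entries belong), whose median on other chromosomes was 1.24 FPKM.

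Set against all entries of other chromosomes together, the main cluster had a narrower range. That pool joins clusters of unlike level, with medians from 0.465 to 5.35 FPKM among those with at least 10 entries. The width of single clusters was not compared, so a narrow range is not shown to be particular to this one. The main cluster had 0 entries under 0.1 FPKM, where 96 entries on other chromosomes (8.63% of the whole table) were under it. No entry on chromosome 10 was listed at 0, where 0.809% of the table was. At the upper end 5 of the main cluster entries reached 5 FPKM (8.77%, against 14.3% over all entries) and 2 reached 10 (3.51%, against 5.4%). In the main cluster 0 reached 20 FPKM, where 14 of all 1112 entries did. Entries at 0 or at 20 FPKM are so rare in the table that their absence here says little about the range. The quartiles were 0.552 and 2.56 FPKM in the main cluster, a 4.63-fold span, against 0.362 and 3.01 FPKM on other chromosomes, an 8.32-fold span. Chromosome 10 held 5.94% of the table's entries but 4.64% of its total FPKM. Among the 21 receptor clusters with at least 10 entries, the main cluster ranked 12 by median and 14 by its highest entry. Chromosome 10 held 0 class I receptors and 0 pseudogenes, and the range of the other chromosomes was about as wide without them. Their 893 class II entries that are not pseudogenes had 74 under 0.1 FPKM and an 8.0-fold span between quartiles.

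**Figure D1:**
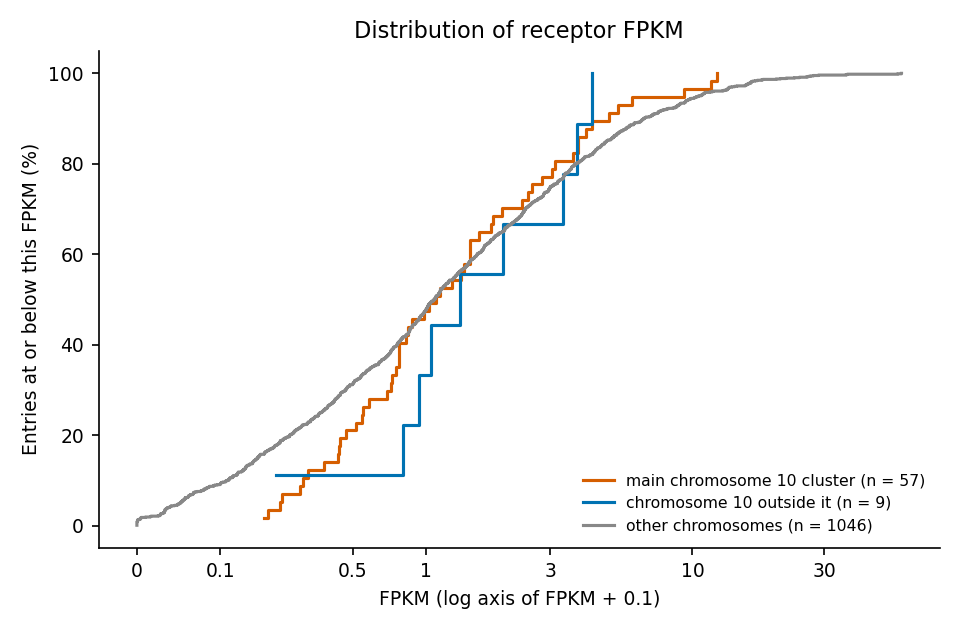
Cumulative share of entries (%) by FPKM (log axis of FPKM + 0.1) for the main chromosome 10 cluster, the 9 chromosome 10 entries outside it and the entries on other chromosomes. The main cluster starts at 0.188 FPKM and ends at 12.3 FPKM, inside the range of the other chromosomes, and crosses them near an FPKM of 1.

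Entries without a test were also rare on the chromosome. The table marks an entry NOTEST where the authors' program made no test, which was the case for 3 of the 66 entries (4.55%) and for 18.3% of all entries. The 3 were Olfr768 at 0.297 FPKM, Olfr782 at 0.229 FPKM and Olfr1351 at 0.219 FPKM. They were not the lowest, because Olfr814 at 0.188 FPKM and Olfr809 at 0.196 FPKM were marked OK.

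Within the main cluster 9 entries held at least 50% of its summed FPKM, and the highest was 65.1 times the lowest. Olfr820 (MOR116, chr10:129454419-129455357) had 12.3 FPKM and ranked 42 in the whole table. Olfr788 (MOR111, chr10:128909750-128910685) had 11.7 FPKM and ranked 45. Olfr805 (MOR110, chr10:129159639-129160598) had 9.35 FPKM and ranked 71. Together these 3 receptors made up 27.9% of the cluster's sum, and they belong to 3 different families at 3 separate places in the cluster.

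The next entries were Olfr786 at 6.00 FPKM, Olfr796 at 5.34 FPKM, Olfr776 at 4.94 FPKM, Olfr801 at 4.29 FPKM, Olfr777 at 4.07 FPKM, Olfr775 at 3.81 FPKM and Olfr806 at 3.80 FPKM. Of the 10 highest, 4 were MOR111 and 3 were MOR110 receptors. At the low end, after Olfr814, Olfr809 and Olfr782, stood Olfr815 at 0.235 FPKM, Olfr822 at 0.288 FPKM, Olfr768 at 0.297 FPKM, Olfr792 at 0.314 FPKM, Olfr765 at 0.371 FPKM, Olfr763 at 0.433 FPKM and Olfr819 at 0.436 FPKM. Of these 10 lowest, 3 were MOR113 and 2 were MOR108 receptors, and Olfr765 carries no MOR name.

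Family medians differed inside the cluster, and each of its 13 MOR families had all of its entries in the table there. MOR111 was the highest of the families with at least 4 entries: its 8 receptors had a median of 3.14 FPKM, 7 of them were at 1 FPKM or more, and they held 27.3% of the cluster's sum. They ran from Olfr803 at 0.734 FPKM to Olfr788 at 11.7 FPKM. In Olfr774, Olfr775, Olfr776 and Olfr787, 64.8% to 72.5% of the 50-base coding stretches are found in no other Olfr transcript. In the other MOR111 receptors at least 86.6% are. MOR110, with 9 receptors and a median of 1.97 FPKM, spanned the widest range, 40.8-fold from Olfr782 at 0.229 FPKM to Olfr805 at 9.35 FPKM, and 7 of its receptors reached 1 FPKM. The low end is uncertain, because Olfr782 is marked NOTEST and only 14.3% of its 50-base coding stretches are found in no other Olfr transcript. The next lowest MOR110 receptor was Olfr812 at 0.552 FPKM. MOR114 was the largest family, with 13 receptors, a median of 1.38 FPKM and 8 at 1 FPKM or more. Its values ran from Olfr768 at 0.297 FPKM to Olfr777 at 4.07 FPKM.

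MOR113 was the lowest of these families, and none of its 5 receptors reached 1 FPKM. Its median was 0.288 FPKM, from Olfr814 at 0.188 FPKM to Olfr810 at 0.724 FPKM. Olfr814 and Olfr815 have only 58.0% and 56.9% of their 50-base coding stretches to themselves, and the rest of MOR113 at least 83.0%. MOR108 had 4 receptors and a median of 0.549 FPKM, from Olfr809 at 0.196 FPKM to Olfr798 at 1.82 FPKM, the only one at 1 FPKM or more. Ranges of the higher and lower families overlapped, so a family name did not fix the level of a receptor. Families here are described and not tested, since receptors of 1 family share sequence and were measured in the same libraries.

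MOR210 had the narrowest range of the families with at least 4 entries. Its 5 receptors, Olfr823 to Olfr827, lie next to each other at the far end of the cluster and had between 0.984 FPKM (Olfr823) and 1.79 FPKM (Olfr827), a 1.82-fold range. In 4 of them, Olfr823 to Olfr826, at most 42.01% of the 50-base coding stretches are found in no other Olfr transcript, and how reads that match several receptors were shared out is not known here. Olfr827, the highest of the 5, has 99.6% of its stretches to itself and is 70.5% identical to its nearest relative, Olfr826. MOR269 was uneven: Olfr9 had 0.516 FPKM and Olfr763 had 0.433 FPKM at the start of the cluster, while Olfr796, which stands alone in the middle of it, had 5.34 FPKM. Olfr796 was only 66.6% identical to its nearest relative on the chromosome, Olfr9, where Olfr9 and Olfr763 were 96.4% identical to each other.

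The remaining families were small. The 2 receptors of MOR112 were close, with 0.761 FPKM for Olfr790 and 0.886 FPKM for Olfr808. MOR109, MOR115, MOR116 and MOR117 had 1 receptor each, with 2.35 FPKM for Olfr821, 0.700 FPKM for Olfr767, 12.3 FPKM for Olfr820 and 0.470 FPKM for Olfr807. Olfr820 and Olfr821, each the only receptor of its family in the table, are neighbours and were 67.7% identical in coding sequence.

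**Figure D2:**
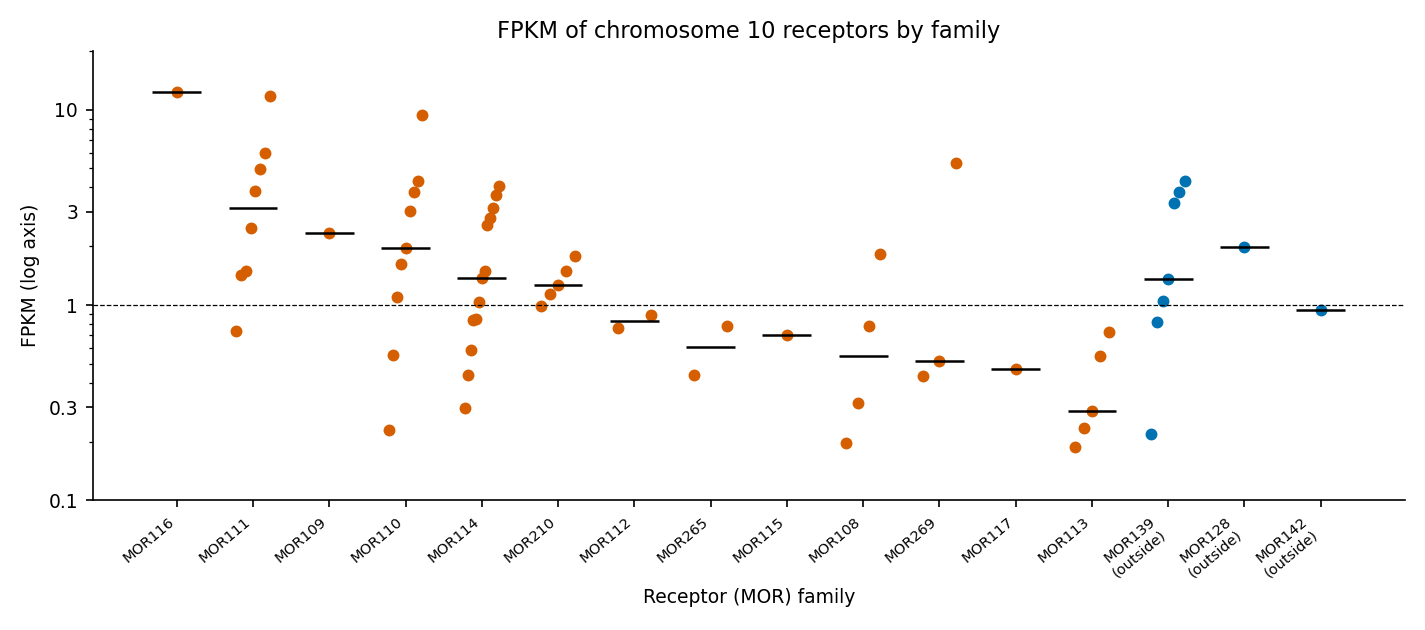
FPKM (log axis) of each chromosome 10 receptor by MOR family, with the main cluster left of the families outside it. Points are receptors, bars are family medians, the dashed line is 1 FPKM, Olfr247 is drawn once and Olfr765, which has no family name, is left out. The 5 MOR113 receptors all lie under 1 FPKM, and 7 of the 8 MOR111 receptors lie above it.

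Level did not follow the order of the genes as a gradient. Across the 57 entries Spearman's rho between FPKM and position was -0.01. Neighbouring entries, with a median gap of 16.6 kb (range 6.48 to 52.3 kb) over a span of 1.22 Mb, had a rho of 0.22 over 56 pairs of neighbours. Of these pairs 1 is Olfr247 at its 2 loci, which are equal in advance, and no rho without that pair was computed. Against the entry after the next the rho was 0.15. These entries share libraries, depth and, for many neighbours, sequence, and the values describe this cluster only. The median fold between neighbours was 2.62, against 2.82 over all 2080 pairs of chromosome 10 receptors, with Olfr247 counted once in the latter. Of the 56 neighbours, 37 (66.1%) differed by more than 2-fold, near the 65.4% of all pairs, and 18 by more than 4-fold. The largest step between neighbours was 15.6-fold, between Olfr247 at 0.785 FPKM and Olfr820 at 12.3 FPKM.

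When the cluster was split by order into 3 parts of 19 entries, the middle part had the highest median. The ranges overlapped, from 0.229 to 6.00 FPKM in the first part, 0.196 to 11.7 in the next and 0.188 to 12.3 in the last. Over all entries of the table, 52.5% were at 1 FPKM or more. The first 19 entries, Olfr9 to Olfr786, had a median of 1.04 FPKM with 10 at 1 FPKM or more. The next 19, Olfr787 to Olfr809, had a median of 1.82 FPKM with 12 at 1 FPKM or more. The last 19, Olfr810 to Olfr827, had a median of 0.785 FPKM with 8 at 1 FPKM or more, although they include the highest receptor of all, Olfr820. All 5 MOR113 receptors and both MOR265 receptors lie in the last stretch.

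Some runs of neighbours lay on the same side of 1 FPKM. The cluster opened with 5 receptors under 1 FPKM, Olfr9 to Olfr768, with a median of 0.433 FPKM. A second run of 5 under 1 FPKM, Olfr812 to Olfr816, had a median of 0.549 FPKM and mixed 3 families (MOR110, MOR108 and MOR113). Runs of 4 receptors at 1 FPKM or more were Olfr774 to Olfr777 (1.42 to 4.94 FPKM), Olfr784 to Olfr788 (2.47 to 11.7 FPKM), Olfr794 to Olfr799 (1.82 to 5.34 FPKM) and Olfr824 to Olfr827 (1.14 to 1.79 FPKM). The run from Olfr784 to Olfr788 held 1 MOR110 and 3 MOR111 receptors, and that from Olfr794 to Olfr799 held MOR114, MOR269 and MOR108 receptors. Strand separated the levels little: the 25 entries on the plus strand had a median of 1.42 FPKM and the 32 on the minus strand one of 1.01 FPKM, with overlapping ranges.

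**Figure D3:**
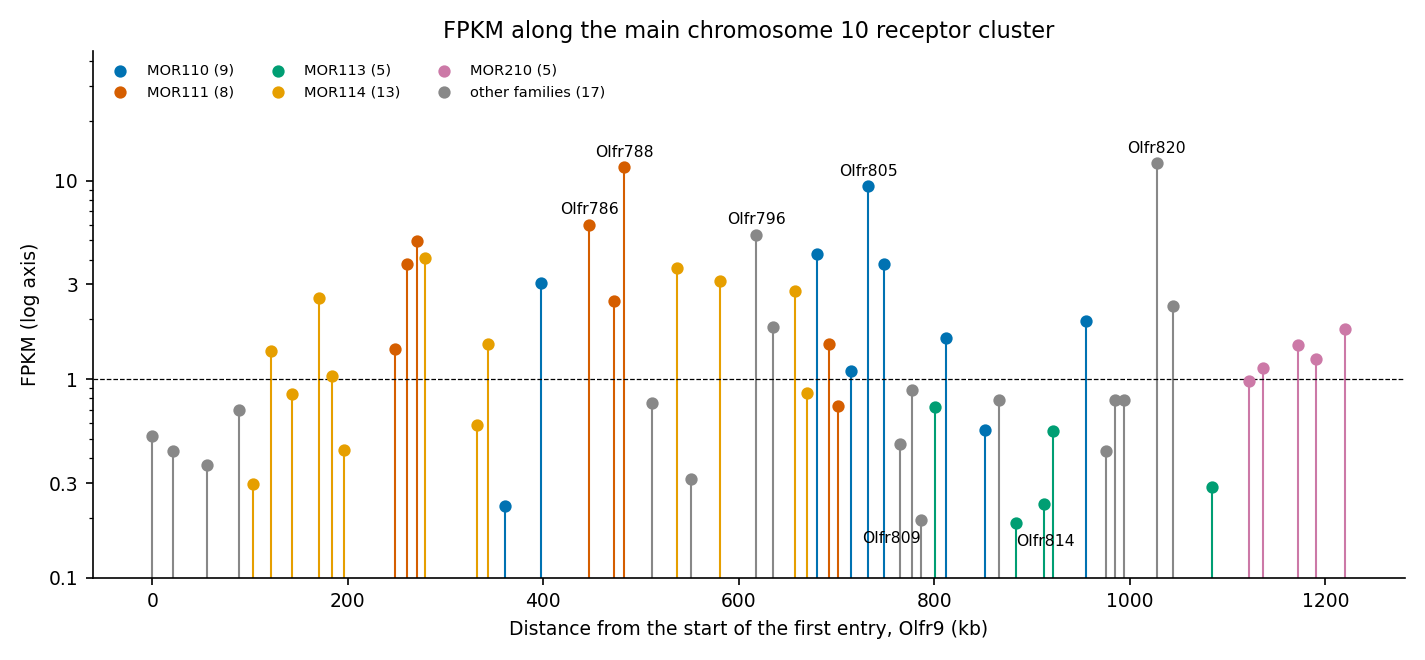
FPKM (log axis) of the 57 main cluster entries by distance from the start of Olfr9 (kb), coloured by MOR family, with Olfr765, which has no family name, among the other families. The dashed line is 1 FPKM. Olfr788, Olfr805 and Olfr820 stand at 3 separate places, and the MOR113 receptors lie low between entries of other families.

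The alikeness of many receptors on this chromosome bears on how their values can be read. Reads from a stretch that 2 genes share cannot be assigned by sequence alone, so levels of near-identical receptors are uncertain. Of the 66 entries, 30 had fewer than 80% of their 50-base coding stretches to themselves, and 14 had all of them. Of the 1091 entries in the whole table with a coding sequence, 367 had fewer than 80% and 339 had all. The median share was 82.27% on chromosome 10 and 92.19% over the whole table. Olfr820, Olfr788 and Olfr796 were among those 14, so the levels of 3 of the 5 highest entries do not depend on shared stretches of this length. Olfr805 had 62.5% to itself. The lowest share was 14.3% in Olfr782, because 715 of its 896 stretches also occur in Olfr779, which has no entry in the table. Across the 66 entries the rho between FPKM and this share was 0.26, and sharing was not tested as a source of it.

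Receptors that were each other's closest relative on the chromosome, with at least 90% identical coding sequence, formed 19 pairs. In 11 pairs the 2 genes were next to each other, all on the same strand, and the median fold between them was 1.80. In 8 pairs other entries lay between them, 4 of these on opposite strands, and the median fold was 4.0. Over all 2080 pairs of chromosome 10 receptors the median fold was 2.82. Folds of more than 2 occurred in 4 of the 11 adjacent pairs (36.4%) and in 5 of the 8 separated pairs (62.5%), against 65.4% of all 2080 pairs. The separated pairs were thus near the share of any pair, and the difference between adjacent and separated pairs was not tested. In every adjacent pair except Olfr1351 and Olfr57, both genes had fewer than 80% of their 50-base stretches to themselves. Among the separated pairs this held only for Olfr782 and Olfr804, Olfr784 and Olfr801, and Olfr809 and Olfr813. Adjacency and shared sequence therefore cannot be told apart in these folds.

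Adjacent pairs at close levels were Olfr823 and Olfr824 (98.7% identical, 0.984 and 1.14 FPKM), Olfr825 and Olfr826 (94.6%, 1.49 and 1.27 FPKM), Olfr9 and Olfr763 (0.516 and 0.433 FPKM), Olfr814 and Olfr815 (95.9%, 0.188 and 0.235 FPKM) and Olfr775 and Olfr776 (96.1%, 3.81 and 4.94 FPKM). These pairs lie at different levels but all under the 5 highest entries of the cluster. Olfr765 and Olfr767, 98.2% identical, had 0.371 and 0.700 FPKM. Adjacent pairs that differed more were Olfr805 and Olfr806, 93.5% identical, with 9.35 and 3.80 FPKM, and Olfr1351 and Olfr57 outside the main cluster, 91.0% identical, with 0.219 and 1.05 FPKM.

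Among the separated pairs, Olfr792 and Olfr798 of MOR108, 95.1% identical and 83.6 kb apart, had 0.314 and 1.82 FPKM, a 5.80-fold difference. Olfr777 and Olfr800 of MOR114, 96.8% identical and 390 kb apart, had 4.07 and 0.852 FPKM. Olfr782 and Olfr804 of MOR110, 96.7% identical, had 0.229 and 1.10 FPKM, with the limit on Olfr782 given above. Other separated relatives were close, such as Olfr784 and Olfr801 with 3.04 and 4.29 FPKM, or Olfr810 and Olfr816 with 0.724 and 0.549 FPKM.

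Stretches of the coding sequence are shown for a separated pair and for 2 near-identical adjacent pairs to make visible how much sequence tells the genes apart. Each line is 120 bases of the sense strand from GENCODE M21, and capitals mark the bases at which the 2 genes of a pair differ. Olfr786 and Olfr802, at 6.00 and 1.49 FPKM, differ at 67 of 939 bases, 18 of them within coding bases 187 to 306.
Olfr786: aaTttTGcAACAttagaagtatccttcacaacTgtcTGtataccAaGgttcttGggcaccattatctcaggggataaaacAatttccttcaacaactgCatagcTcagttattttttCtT
Olfr802: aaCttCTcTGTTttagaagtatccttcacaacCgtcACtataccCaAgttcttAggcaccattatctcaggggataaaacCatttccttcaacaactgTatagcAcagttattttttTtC

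With gaps counted as differences, Olfr772 and Olfr773 are the most alike pair, 99.3% identical with 7 differing bases out of 936. They had 1.04 and 0.440 FPKM. Coding bases 698 to 817 hold 4 of these 7 differences, and each gene has only 21.2% of its 50-base stretches to itself.
Olfr772: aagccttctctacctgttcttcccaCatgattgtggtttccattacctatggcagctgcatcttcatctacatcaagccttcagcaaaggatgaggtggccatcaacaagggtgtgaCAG
Olfr773: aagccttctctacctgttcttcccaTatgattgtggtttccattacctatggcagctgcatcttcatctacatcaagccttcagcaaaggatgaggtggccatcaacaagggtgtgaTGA

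Olfr1354 and Olfr8, which lie outside the main cluster, are 98.2% identical with 17 differing bases out of 933, 5 of them within coding bases 790 to 909. They had 4.30 and 1.36 FPKM, a 3.16-fold difference. A nearby gene, Olfr1355 at 0.816 FPKM, is 98.0% identical to Olfr8 and shares 316 of its 884 50-base stretches with Olfr1354 and 349 with Olfr8, so the differences between Olfr1354 and Olfr8 alone do not set the 3 genes apart.
Olfr1354: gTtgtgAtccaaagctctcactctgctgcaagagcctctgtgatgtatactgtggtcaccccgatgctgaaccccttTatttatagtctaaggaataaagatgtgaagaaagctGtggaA
Olfr8: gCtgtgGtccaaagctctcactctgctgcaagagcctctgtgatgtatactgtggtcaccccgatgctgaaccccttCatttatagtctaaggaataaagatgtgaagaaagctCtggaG

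Within the coding sequence, only reads that cover a differing base tell the genes of the last 2 pairs apart, and the files give no count of such reads. How the other reads entered these levels is not known here.

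**Figure D4:**
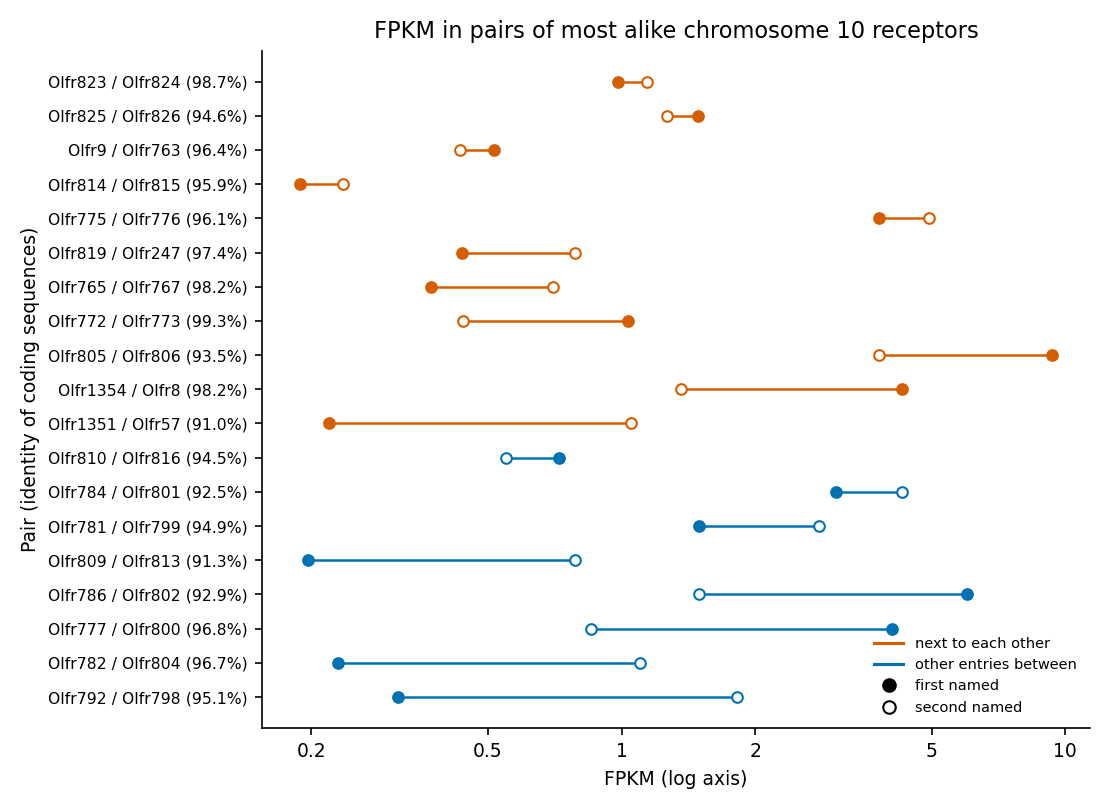
FPKM (log axis) of the 19 pairs of most alike chromosome 10 receptors, with the identity of their coding sequences. Lines join the 2 receptors of a pair, orange for genes next to each other and blue for genes with other entries between them, and closed and open points are the first and second receptor named. Of the 11 orange lines 4 span more than 2-fold, and 5 of the 8 blue lines span more than 2-fold.

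Olfr247 of MOR265 was listed at 2 loci, chr10:129411661-129412605 and chr10:129420536-129421480. The loci are 945 bp each with starts 8875 bp apart, and both carry the same 0.785 FPKM. The value can therefore not be divided between the loci. Its neighbour Olfr819, the other MOR265 receptor, had 0.436 FPKM. Over the 945 bases that end at the stop codon, Olfr819 and Olfr247 differ at 7, and only 24.3% of the 50-base stretches of Olfr819 and 24.8% of those of Olfr247 are found in no other receptor. The 120 bases with the most differences, at coding bases 572 to 691 of Olfr819 and 554 to 673 of Olfr247, hold 4 of them, in capitals.
Olfr819: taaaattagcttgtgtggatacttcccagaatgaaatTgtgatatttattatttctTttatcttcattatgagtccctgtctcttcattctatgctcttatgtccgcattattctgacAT
Olfr247: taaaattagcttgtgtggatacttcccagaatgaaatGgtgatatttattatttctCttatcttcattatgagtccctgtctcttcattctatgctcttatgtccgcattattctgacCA

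The 9 entries outside the main cluster spread over 424 kb and belong to other families: MOR139 with 7 receptors, and MOR128 and MOR142 with 1 each. Their median was 1.36 FPKM, against 1.08 FPKM on other chromosomes. Of the 9, 6 (66.7%) reached 1 FPKM, against 52.5% over all entries of the table. On the log2(FPKM + 0.1) scale the main cluster median minus theirs was -0.28. With 9 entries this describes these receptors only, and the difference was 0.04, with the opposite sign, among entries with at least 80% of their stretches to themselves. Their quantity also differs in kind, since the table's locus equals the coding length for 56 of 57 main cluster entries but for 3 of these 9. On other chromosomes it does for 768 of 1046 entries. The coding sequence used for a gene was the one nearest in length to its locus.

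Olfr1354 at 4.30 FPKM, Olfr1352 at 3.77 FPKM and Olfr1353 at 3.34 FPKM were the highest of the 9, all of MOR139 (the synonyms of Olfr1354 also include a MOR185 name). Olfr1357 of MOR128 at 1.99 FPKM, Olfr8 at 1.36 FPKM, Olfr57 at 1.05 FPKM, Olfr1356 of MOR142 at 0.941 FPKM and Olfr1355 at 0.816 FPKM stood between. Olfr1351, at 0.219 FPKM, was the lowest and the only one marked NOTEST. Olfr1352 and Olfr1353 are neighbours that share 77.0% of their coding sequence and had close values, while MOR139 as a whole ranged 19.7-fold.

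From 1 to 3 annotated exons, medians rose on chromosome 10 as they did in the whole table. The 4 single-exon entries on the chromosome (Olfr9, Olfr763, Olfr768 and Olfr773) had a median of 0.436 FPKM and none reached 1 FPKM. Of these 4, Olfr9, Olfr763 and Olfr773 have only 43.6%, 43.0% and 21.2% of their 50-base stretches to themselves. The 40 entries with 2 exons had a median of 1.08 FPKM and the 19 with 3 exons one of 1.79 FPKM. The 2 entries with 4 exons, at a median of 1.75 FPKM, were no higher. Olfr805 was the single entry with 5 exons. Over the whole table the medians were 0.0892 FPKM for 119 single-exon entries, 1.05 FPKM for 624 with 2 exons and 1.59 FPKM for 269 with 3 exons. For the 66 entries of the whole table with 4 exons it was 2.35 FPKM. The rho between exon number and FPKM was 0.27 across the 66 entries. Exon number and FPKM are both properties of single genes here, so this is a description across genes.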

How the data were processed

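Total RNA of the olfactory epithelium of 2 adult C57BL/6 samples was extracted with Trizol, and libraries followed the TruSeq protocol, per the labels. The FPKM values were made and deposited by the authors, 1 per receptor, with a locus and a status per the file headers. TopHat2, Bowtie2, Cuffdiff and the build mm9 are named in the submitters' processing notes, without versions. The annotation, the read length, the depth and the handling of multiply matching reads were not given in the sources used here. Each of the 1112 rows names both samples, so the value could not be tied to either and the planned values per sample became 1 value per gene. No test was made, because a single value per gene leaves no samples to compare.

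Members are all entries on chromosome 10, the main cluster being those between 128.4 and 129.7 Mb. Members and lists were chosen with earlier results of these data known. Named with values were the 10 highest and 10 lowest entries of the main cluster, every entry outside it, entries sharing a value, and the extremes of families and runs described. The members of the pairs of alike genes, and Olfr807, Olfr790, Olfr808 and Olfr821, were named after their values were seen. Proteins were not used here. Starts count from 0 in the table, and 1 was added. MOR families came from RefSeq synonyms, and all 66 entries matched by symbol. Families 1 to 42 were class I. Coding sequences, strands and exons came from GENCODE M21 (GRCm38), in which all 66 were found; its coordinates were not used. Differences of medians used log2(FPKM + 0.1), which understates differences between low entries. Identity came from global alignment, with gaps counted as differences, so pairs of unlike coding length score lower. A 50-base stretch was its own where no other Olfr transcript held it on the sense strand. Letters were searched in frame on the sense strand. Clusters were runs with gaps under 1 Mb. The alternatives tried are given in the closing section. The scripts were tested on simulated data and used Python 3.11.15, numpy 2.4.6, pandas 2.3.3, scipy 1.17.1, Biopython 1.88 and matplotlib 3.10.9.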

Additional observations from a re-analysis of the deposited data

How the results depend on the processing

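Depth and replicate error are unknown, so small differences between receptors cannot be judged. No paired analysis was possible because the table holds 1 value per gene, and the fits without replicate 1, without replicate 2 and with a replicate block were not run. At a threshold of 0.1 FPKM or above 0, all 66 chromosome 10 and all 57 main cluster entries passed, and at 5 FPKM 5 passed in both. The main cluster against other chromosomes (main value 0.03, log2) became -0.20 for entries at 0.1 FPKM or more, -0.43 for entries with status OK and -0.16 against class II entries, so its sign reversed. Its other values were 0.01 with a pseudocount of 1, 0.02 without pseudogenes, 0.06 without shared values and 0.48 with at least 80% unique 50-base stretches. The first 2 reversals come with the removal of low entries, of which other chromosomes had more. The entries outside the cluster against other chromosomes (0.305) gave 0.33 and 0.18 with pseudocounts of 0.01 and 1, 0.08 for entries at 0.1 FPKM or more, 0.06 with status OK, 0.29 without shared values, 0.43 with 80% unique stretches and 0.12 against class II entries. The main cluster against the entries outside it (-0.28) gave -0.30 and -0.17 with pseudocounts of 0.01 and 1, -0.49 with status OK, -0.23 without shared values and, reversed, 0.04 with 80% unique stretches, and the cause was not tested. The chromosome 10 share of summed FPKM was 4.62% with shared values counted once and 4.83% of class II. Pearson's r on log2(FPKM + 0.1) was 0.21 for neighbours (0.15 by rho for the entry after the next), 0.01 for position, a reversed sign near 0, 0.31 for exon number and 0.27 for unique stretches.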
